A study of Mus musculus with 2 samples.

Results

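Accessible sites inside introns of short genes were described in mouse cerebral cortex. A site is a stretch of the genome where peaks of DNase I cutting of both mice were merged, with at least 1 bp of overlap. The sites described here had a peak in each mouse, lay on chromosomes 1 to 19 or X, and had their midpoint in an intron and in no annotated exon. Every protein-coding gene at the midpoint was shorter than 100 kb, and the midpoint was over 1 kb from every annotated start site and every gene end. Of 43925 sites with a peak in each mouse, 4081 (9.29%) met this rule. They fell into 1171 sites in first introns, 2419 in later introns and 491 called mixed below. Coding transcripts place the mixed sites differently, apart from 86 that lie in no intron of a coding transcript. The rule uses position and the presence of peaks, and neither height, footprints nor sequence. With the authors' longer peak list, which goes down to weaker peaks, 7680 sites met it.

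DNase-seq was run on the left cerebral cortex of 2 mice, both B6CASTF1/J males of 36 days, with 1 library for each, replicate 1 and replicate 2. No other group, genotype or treatment is described here, so values are given per mouse, errors are SDs over 2 mice, and no test across animals exists. Sites are not replicates of a mouse, so kinds of site are compared by counts and intervals, with no test. B6CASTF1/J is a hybrid of 2 inbred strains, and the sequences shown are those of the C57BL/6J reference, which is not the sequence of the other parental chromosome. The labels number the mice as males 06 and 05, with 1 donor label between them. The tissue was taken whole, so that fewer cells of a type and less accessibility per cell cannot be told apart.

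DNase I cuts DNA most where nucleosomes are displaced, at promoters, enhancers and sites of CTCF, the zinc-finger protein that anchors chromatin loops. Introns hold many enhancers, which act on their own gene or on neighbours, and the first intron adjoins the promoter and often holds elements of its regulation. A bound protein can shield its site from the enzyme, which leaves a footprint, a short run of bases with fewer cuts inside an open site.

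The highest sites show what these elements look like as sequence. Below are 200 bp around the midpoint of the 3 highest sites of first introns (Il31ra, Nr1d1, Mxi1) and of later introns (Sptbn4, Itpkb, Clec11a), read 5′ to 3′ on the forward strand of mm10 (GRCm38.p6, NCBI RefSeq). Capitals mark bases inside a deposited footprint of each mouse.
Il31ra chr13:112578141-112578340: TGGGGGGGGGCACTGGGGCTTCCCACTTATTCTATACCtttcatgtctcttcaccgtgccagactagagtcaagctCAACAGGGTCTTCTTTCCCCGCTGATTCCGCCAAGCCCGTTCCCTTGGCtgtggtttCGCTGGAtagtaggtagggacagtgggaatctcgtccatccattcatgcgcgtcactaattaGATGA
Nr1d1 chr11:98773921-98774120: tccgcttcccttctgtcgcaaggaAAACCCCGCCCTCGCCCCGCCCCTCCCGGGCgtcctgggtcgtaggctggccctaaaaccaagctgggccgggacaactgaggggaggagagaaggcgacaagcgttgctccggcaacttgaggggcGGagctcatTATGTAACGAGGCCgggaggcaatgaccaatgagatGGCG
Mxi1 chr19:53314231-53314430: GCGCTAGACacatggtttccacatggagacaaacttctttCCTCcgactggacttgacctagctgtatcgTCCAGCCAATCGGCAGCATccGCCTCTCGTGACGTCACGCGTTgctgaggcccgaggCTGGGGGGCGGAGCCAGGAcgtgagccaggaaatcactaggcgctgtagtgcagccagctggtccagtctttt
Sptbn4 chr7:27361461-27361660: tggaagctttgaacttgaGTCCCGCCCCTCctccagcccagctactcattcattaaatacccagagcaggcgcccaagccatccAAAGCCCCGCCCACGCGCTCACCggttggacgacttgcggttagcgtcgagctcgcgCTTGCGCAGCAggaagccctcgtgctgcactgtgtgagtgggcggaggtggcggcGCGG
Itpkb chr1:180387551-180387750: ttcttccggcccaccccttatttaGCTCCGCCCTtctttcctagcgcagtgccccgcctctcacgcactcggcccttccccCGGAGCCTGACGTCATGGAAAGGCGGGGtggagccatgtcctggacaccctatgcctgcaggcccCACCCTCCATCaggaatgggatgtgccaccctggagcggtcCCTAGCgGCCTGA
Clec11a chr7:44305111-44305310: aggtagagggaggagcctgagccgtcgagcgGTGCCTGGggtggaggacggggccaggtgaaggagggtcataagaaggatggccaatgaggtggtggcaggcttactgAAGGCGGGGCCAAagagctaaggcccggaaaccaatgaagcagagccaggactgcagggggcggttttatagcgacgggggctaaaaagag
In the window of Nr1d1 51 of the bases lie in a footprint of each mouse, and the largest block of capitals holds repeated copies of the GC box CCGCCC. In Mxi1 73 bases do, with the cAMP response element TGACGTCA inside a block of capitals. The same element stands in capitals in Itpkb. Il31ra has the most bases in footprints, 99, but its letters resemble large-subunit ribosomal DNA, which the genome holds in many copies, so its height may not be that of an intronic element, as given below.

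The next windows show the sequence patterns that the counts below turn on. Each is the highest site with that pattern inside a footprint of each mouse, Nuak1 for first and Cnih2 for later introns with the CTCF pattern. Capitals mark the pattern or its reverse complement. Palm holds the RFX pattern, Baiap2 the AP-1 pattern, Ppp5c and Atoh8 the E-boxes CAGATG and CAGCTG, and Dot1l the MEF2 pattern.
Nuak1 chr10:84438121-84438320: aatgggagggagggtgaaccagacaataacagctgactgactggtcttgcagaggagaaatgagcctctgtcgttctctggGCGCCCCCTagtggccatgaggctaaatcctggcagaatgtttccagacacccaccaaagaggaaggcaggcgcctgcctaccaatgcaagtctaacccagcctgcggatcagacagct
Cnih2 chr19:5094351-5094550: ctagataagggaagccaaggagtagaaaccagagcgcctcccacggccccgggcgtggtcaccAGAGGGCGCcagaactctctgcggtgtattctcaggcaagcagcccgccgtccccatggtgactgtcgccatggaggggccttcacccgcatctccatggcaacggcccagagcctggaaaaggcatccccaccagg
Palm chr10:79803741-79803940: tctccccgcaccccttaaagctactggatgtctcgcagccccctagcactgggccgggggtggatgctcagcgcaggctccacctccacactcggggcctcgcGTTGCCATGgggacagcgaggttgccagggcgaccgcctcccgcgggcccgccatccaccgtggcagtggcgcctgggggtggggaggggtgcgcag
Baiap2 chr11:119991351-119991550: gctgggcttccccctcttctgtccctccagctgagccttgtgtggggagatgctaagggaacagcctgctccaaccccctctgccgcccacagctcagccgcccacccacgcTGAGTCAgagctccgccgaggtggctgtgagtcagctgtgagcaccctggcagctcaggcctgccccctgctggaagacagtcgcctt
Ppp5c chr7:17017141-17017340: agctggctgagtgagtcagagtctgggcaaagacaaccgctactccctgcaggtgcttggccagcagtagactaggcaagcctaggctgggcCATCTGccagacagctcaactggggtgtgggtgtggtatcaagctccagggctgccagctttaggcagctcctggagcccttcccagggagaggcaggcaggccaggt
Atoh8 chr6:72216721-72216920: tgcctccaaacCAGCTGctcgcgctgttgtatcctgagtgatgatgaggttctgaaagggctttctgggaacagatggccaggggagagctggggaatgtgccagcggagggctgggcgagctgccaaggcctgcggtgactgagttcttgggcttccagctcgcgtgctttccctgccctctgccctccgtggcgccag
Dot1l chr10:80774641-80774840: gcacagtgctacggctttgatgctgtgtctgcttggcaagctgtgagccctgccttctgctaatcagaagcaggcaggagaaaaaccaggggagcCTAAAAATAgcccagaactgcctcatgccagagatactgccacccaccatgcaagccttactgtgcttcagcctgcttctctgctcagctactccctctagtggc
Nuak1, a kinase gene related to AMPK, carries the CTCF pattern on the reverse strand and Cnih2, which codes for an auxiliary subunit of AMPA-type glutamate receptors, on the forward strand. Cnih2 also holds the RFX pattern in the same window. These letters are descriptions of the reference genome and do not show which protein was bound.

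The height of a peak is the value the authors' lists give it, and the normalization is not stated in the sources used here. Every height was a multiple of a smallest step, 0.00625 in replicate 1 and 0.00688 in replicate 2 (to within 0.02 of a step), and heights were read as cuts scaled to depth. On that reading the depths are 160.1 and 145.4 M cuts. The median height of the 4081 sites was 1.42 in replicate 1 and 1.11 in replicate 2, 227 and 161 cuts, with counting errors of 6.64% and 7.88%. Heights ran from 0.275 to 31.4 in replicate 1 and from 0.316 to 16.2 in replicate 2, with the middle 50% between 0.993 and 2.07 and between 0.819 and 1.57. Most of these sites are therefore of modest height, below the median over all sites with a peak in each mouse, which was 1.66 and 1.17. The 17404 promoter sites, within 1 kb of a start site, had medians of 3.32 and 1.80.

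**Figure D1:**
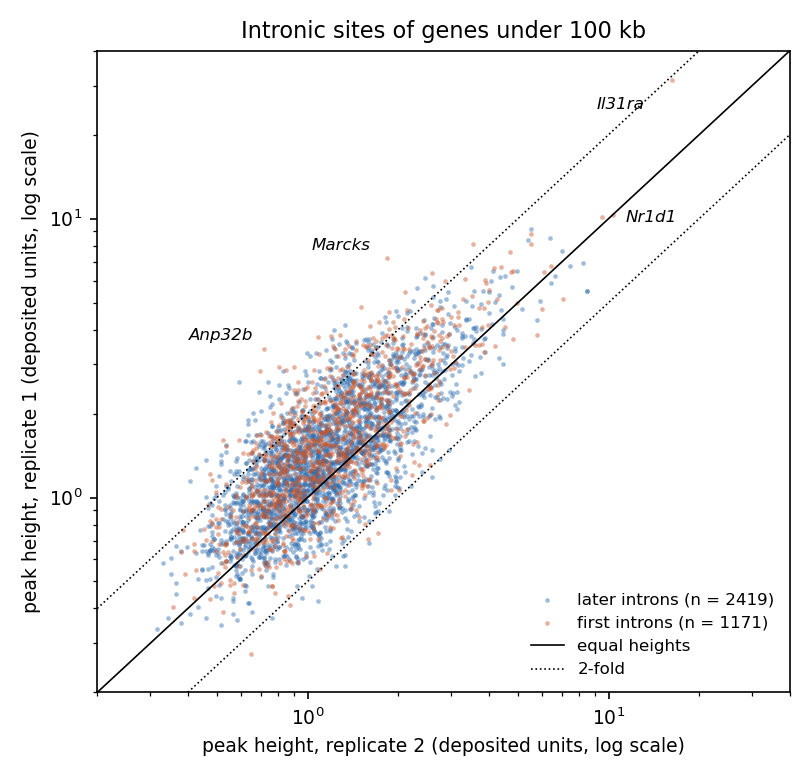
Peak height in replicate 1 (vertical, log scale) against replicate 2 (horizontal, log scale), deposited units, 1 point per site in first (orange) or later (blue) introns of genes under 100 kb; the solid line is equality and the dotted lines are 2-fold. Most points lie above the line of equal heights, with Anp32b farthest above it, and Il31ra, whose sequence has copies elsewhere, is the highest in both mice.

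Sites lay closer together along first introns than along later ones. Over the bases that meet the position rule, 75 Mb of first and 181 Mb of later intron, there were 15.6 sites per Mb in first introns (exact Poisson 95% interval 14.7 to 16.5) and 13.4 per Mb in later introns (12.8 to 13.9). These intervals, like all intervals given here, cover counting error only. Mixed introns held 16.2 per Mb. The gap was widest next to the start site. Between 1 and 2 kb from the nearest start site first introns held 22.2 sites per Mb (19.7 to 24.9) and later introns 15.7 (13.9 to 17.6). From 2 to 5 kb the densities were 15.0 and 13.9, from 5 to 10 kb 13.7 and 12.4, from 10 to 20 kb 13.6 and 13.4, and from 20 to 50 kb 14.8 and 12.9, each with intervals that overlap. Over all distances from 2 kb on, first introns held 14.2 per Mb (13.3 to 15.2) and later introns 13.1 (12.5 to 13.7), so first introns were also the denser there, with intervals that overlap. Taking the peaks of each mouse alone, first introns held 31.3 sites per Mb against 22.4 in later introns in replicate 1 and 21.3 against 18.7 in replicate 2. The direction was the same in 2 of 2 mice, and the ratio of first to later, 1.40 and 1.14, differed between them.

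**Figure D2:**
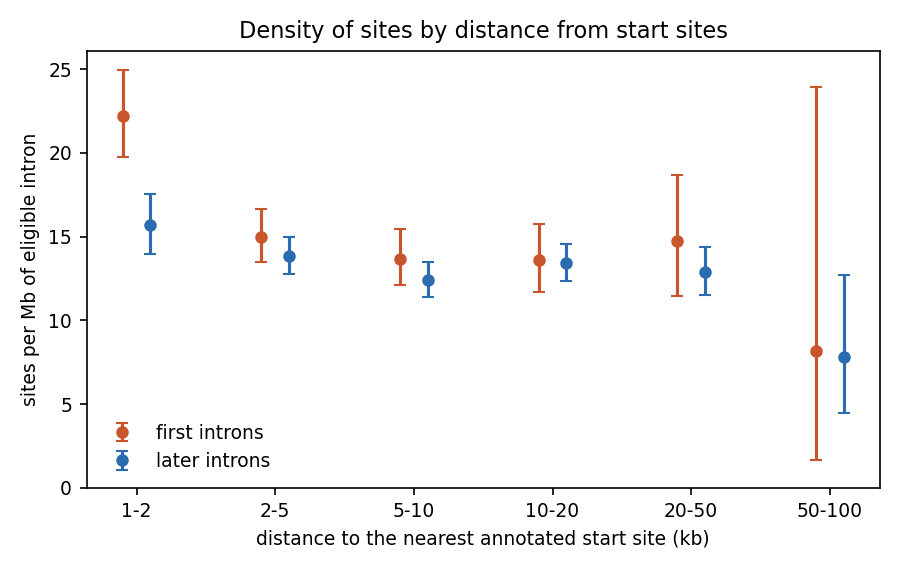
Sites per Mb of eligible intron (vertical) by distance to the nearest annotated start site in kb (horizontal) for first (orange) and later (blue) introns; bars are exact Poisson 95% intervals. First introns stand above later ones at 1 to 2 kb, 22.2 against 15.7 per Mb, and the intervals overlap in every farther bin.

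Introns of genes over 300 kb, chosen in the same way, held 3001 sites at a lower density, 10.02 per Mb (9.66 to 10.4), against 14.2 (13.8 to 14.7) for the introns of genes under 100 kb. Intergenic sequence over 1 kb from any start or end held 9.24 per Mb. By gene length, under 10 kb, 10 to 20, 20 to 50 and 50 to 100 kb, first introns held 12.3, 17.9, 16.0 and 15.1 sites per Mb. Later introns held 13.2, 14.4, 12.7 and 13.6. Neither series rose or fell throughout, and under 10 kb, where first introns were not the denser, the intervals were wide, 8.91 to 16.6 for first and 10.3 to 16.5 for later introns. The X chromosome stood apart, with 58 sites at 5.14 per Mb (3.90 to 6.64) against 14.6 (14.2 to 15.1) on the autosomes. Median heights on X were 0.849 and 0.774, against 1.42 and 1.11 on the autosomes. The mice are male, with 1 X chromosome per cell, and what part of the gap that makes was not tested.

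First-intron sites were higher than later-intron sites in each mouse, by little. The median heights were 1.51 and 1.35 in replicate 1, and 1.13 and 1.09 in replicate 2. The difference, 0.102 ± 0.0856 (SD, n = 2), was of the size of its spread between the mice. It rests on sites shared by both mice: with the peaks of 1 mouse alone it was 0.0378 without replicate 1 and 0.0187 without replicate 2. By intron number the second intron gave 1.31 and 1.16 (n = 393), introns 6 to 10 gave 1.31 and 1.08 (n = 433), and introns from the eleventh on 1.26 and 0.991 (n = 254). Past the first intron the medians ran from 1.26 to 1.36 in replicate 1, all below that of the first intron. In replicate 2 they ran from 0.991 to 1.16, and the second intron was above the first. Bases that the authors listed at a false discovery rate of the cut rate of 0.05 or less, counted up to 1 kb to either side of the midpoint, were a median of 538 and 359 in first and 410 and 313 in later introns. This window comes within 1 kb of a start site where the midpoint is 1 to 2 kb from one. That was so at 289 of the 1171 first-intron and 295 of the 2419 later-intron sites. The part of distance in this difference was not tested. Against introns of genes over 300 kb, with medians of 1.14 and 0.915, sites in short genes were 1.24 and 1.21 times as high, a mean ratio of 1.23 ± 0.0212 (SD, n = 2). Against intergenic sites the ratio was 1.19 and 1.15. Both differences kept their direction in 2 of 2 mice.

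The mice differed in height, mostly with replicate 1 the higher. The height in replicate 1 was at least 2 times that in replicate 2 at 369 of the 4081 sites (9.04%), and 18.3% of all sites with a peak in each mouse passed this. The reverse, replicate 2 at least 2 times higher, held at 17 sites (0.417%) against 0.467% of all sites. The share 2-fold higher in replicate 1 was 11.7% in first and 7.69% in later introns. The ratio followed base composition. GC content over 200 bp had a median of 52.5% (53.5% in first, 52.0% in later introns), and the median ratio of replicate 1 to replicate 2 rose from 0.998 in sites under 45% GC to 1.26 at 50 to 55% and 1.80 at 65% and over. Within classes of GC content the median ratios of first and later introns were 1.003 and 1.009 under 45%, and 1.16 and 1.09 at 45 to 50%. They were 1.34 and 1.22 at 50 to 55%, and 1.40 and 1.38 at 55 to 60%. Above that they were 1.53 and 1.48 at 60 to 65%, and 1.87 and 1.70 at 65% and over. The share 2-fold higher in replicate 1 was higher in first introns in each class from 50% on. It was 8.36% against 6.89% at 50 to 55%, and 38.9% (21 of 54) against 29.7% (11 of 37) at 65% and over. It was lower in first introns at 45 to 50%, with 3.90% against 4.64%, and under 45%, with 0% against 0.485%. Over all sites with a peak in each mouse the median ratio also rose with GC content, from 0.985 to 2.03. The part of GC content in any other difference between the mice was not tested. Divided by the median over all peaks of the same library, heights differed 2-fold in that direction at 2.55% of the sites.

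**Figure D3:**
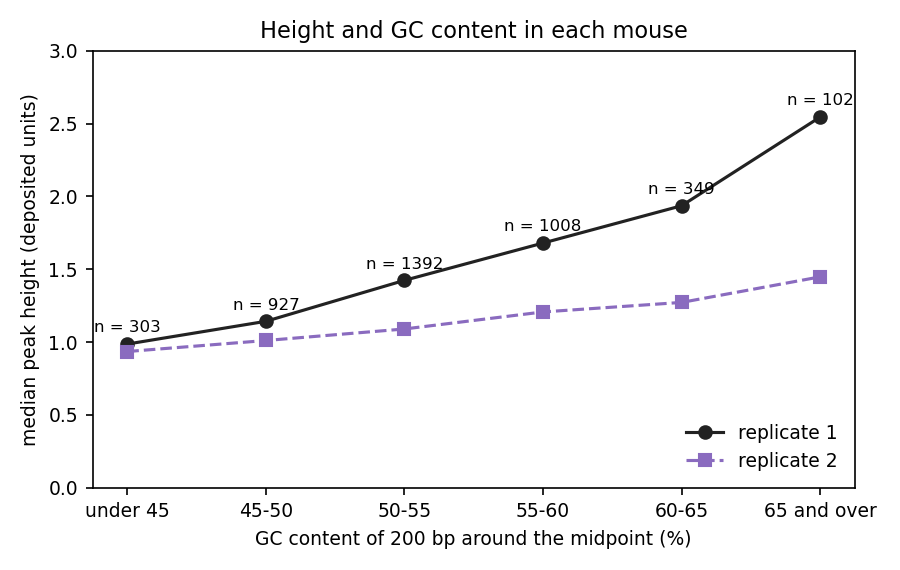
Median peak height (deposited units) of intronic sites of genes under 100 kb by GC content of 200 bp around the midpoint, in replicate 1 (black circles) and replicate 2 (purple squares), with the number of sites above each pair. Both rise with GC content, from 0.987 and 0.936 under 45% to 2.55 and 1.45 at 65% and over.

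Single sites show both ends of this range. Anp32b, a gene for a histone-binding nuclear phosphoprotein, had the largest ratio, with 3.42 in replicate 1 and 0.715 in replicate 2 at a first-intron site of 83.5% GC. Marcks, a substrate of protein kinase C that binds actin, had 7.23 and 1.83 at 80.0% GC. Base composition was not extreme at all 5 sites with the largest ratios: Itgad, an integrin subunit of myeloid cells, had 2.60 and 0.592 at 50% GC, and Rims3, of the presynaptic active zone, 2.84 and 0.695 at 60.5%. In the other direction Rgs13 had 0.425 and 1.09 at 48.5% GC, Tmprss11d 0.275 and 0.647 at 41.5%, and Car12, a carbonic anhydrase, 0.687 and 1.60 at 52.0%. These sites were chosen for their ratio, and with 1 library per mouse none of them has a replicate check.

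Nearly all sites held a footprint. A footprint of the authors' lists lay in the site in each mouse at 95.2% of the 4081 sites, against 92.8% of all sites with a peak in each mouse, and 19 sites held none in either mouse. There were 2.87 footprints per site in replicate 1 and 2.83 in replicate 2, or 1.17 and 1.15 per 100 bp, since sites were 220 bp wide in the median (237 bp in first, 220 bp in later introns). All sites with a peak in each mouse, promoters among them, held more, 3.54 and 3.37 per site and 1.26 and 1.20 per 100 bp. Per 100 bp first and later introns were alike, at 1.17 and 1.16 in replicate 1 and 1.101 and 1.17 in replicate 2. Footprints covered 14.8% and 15.7% of the bases of these sites, 15.8% and 16.3% over all sites, and 12.5% and 13.0% in introns of genes over 300 kb. Of the 11726 footprints of replicate 1 in these sites, 54.1% overlapped 1 of the 11530 of replicate 2. Over all sites with a peak in each mouse 53.7% did, in intergenic sites 51.3% and in introns of genes over 300 kb 46.4%. Among the members the share was 50.2% in first and 56.7% in later introns. Many footprints were thus listed in a single mouse, here as over all sites. Clec11a, Sin3a and Jade2 held the most, with 12 and 17, 15 and 14, and 14 and 10 footprints in sites of 780, 940 and 1020 bp. Sin3a codes for the scaffold of a histone deacetylase complex.

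Of the 18 sequence patterns searched on both strands of 200 bp around each midpoint, the CTCF pattern AGNGGGCGC (N is any base) had the largest excess over windows 1 kb away, 15.7 times. It was in 235 of the 4081 windows, 5.76% (Wilson 95% interval 5.08 to 6.52), against 4.75% of all sites with a peak in each mouse and 0.368% of those flanking windows. The same letters in reversed order were in 0.221% of the windows. It was in 168 windows of later introns, 6.95% (6.00 to 8.03), and in 44 of first introns, 3.76% (2.81 to 5.01). These intervals do not overlap. In introns of genes over 300 kb the share was 2.63% (2.12 to 3.27). Over the peaks of each mouse alone the shares of first and later introns were 2.51% and 5.06% in replicate 1 and 3.51% and 5.95% in replicate 2, the same order in 2 of 2 mice. The order held near start sites and far from them. Within 1 to 5 kb of a start site it was 4.61% (3.25 to 6.50) against 7.34% (5.83 to 9.21), with intervals that overlap, and from 5 kb on 2.69% (1.61 to 4.47) against 6.70% (5.54 to 8.08), with intervals that do not.

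The CTCF pattern was also the one most often inside a footprint. In 206 of the 235 windows, 87.7%, at least 50% of its letters lay in a footprint of each mouse. Over all sites with a peak in each mouse that share was 72.5%, with promoter sites at 55.1%. Intergenic sites had 84.5% and introns of genes over 300 kb 82.3%, so a high share was not particular to introns of short genes. The next shares belonged to patterns in few windows, most of them typical of promoters, with 66.7% each for NRF1 (16 of 24), YY1 (12 of 18) and NFI (2 of 3), 52.3% for EGR (23 of 44) and 52.0% for the cAMP response element (13 of 25). Among the frequent patterns this held at 42.9% of windows with GGGCGG, the GC box read by SP and KLF proteins, at 23.0% with the E-box CAGATG, and at 3.70% with the AP-1 pattern TGANTCA. Over all sites the shares were 69.4% for NRF1, 31.2% for YY1, 61.5% for NFI, 53.6% for EGR and 71.7% for the cAMP response element. They were 48.1% for GGGCGG, 20.5% for CAGATG and 3.97% for AP-1. The footprints over the CTCF pattern were long. Their median width was 29 bp in replicate 1 (n = 212) and 31 bp in replicate 2 (n = 214), against 10 bp in each mouse over all footprints of these sites. At least 20 bp were reached by 89.6% and 81.3% of them, against 16.5% and 19.1% of all. The windows with the pattern had median heights of 1.55 and 1.31, and those without it 1.41 and 1.101. In the 222 sites with 1 match and 1 coding gene, the pattern as written lay on the gene's sense strand in 88 (39.6%, 33.4 to 46.2) and on the antisense strand in 134.

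The E-box, AP-1 and RFX patterns were also more frequent at the midpoints than 1 kb away. RFX was in a footprint of each mouse in 35.2% of the windows that hold it, and the E-box CAGCTG in 16.5%. Over all sites with a peak in each mouse these shares were 37.0% and 15.3%, near those of the members. The E-box CAGATG, read by proneural factors such as NEUROD and NEUROG, was in 24.9% of windows against 16.7% of those 1 kb away, and CAGCTG in 20.4% against 11.4%. The AP-1 pattern, read by FOS and JUN, was in 11.9% against 5.32% and the RFX pattern GTTNCCATG in 2.99% against 0.943%. Over all sites with a peak in each mouse the shares were 19.4% for CAGATG, 17.4% for CAGCTG, 9.34% for AP-1 and 2.31% for RFX. AP-1 and CAGATG were higher still in introns of genes over 300 kb, at 15.1% (13.9 to 16.5) and 28.9% (27.3 to 30.6), where the members' intervals were 10.95 to 12.9 and 23.6 to 26.3. The MEF2 pattern CTANNNATA was at 5.54% not above its flanks at 6.09%, and 1.77% of the windows with it had it in a footprint of each mouse. Over all sites that last share was 2.69%. Footprints over the AP-1 pattern had median widths of 13 and 12 bp, and those over RFX 17 and 19 bp, between the AP-1 and the CTCF values.

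The GC box differed between first and later introns, as did its letters in reversed order. It was in 14.9% of first-intron windows (12.9 to 17.0) and 9.47% of later ones (8.36 to 10.7). Of the windows 1 kb away, 6.96% and 3.93% held it. Its reversed letters were in 14.8% and 8.60%. The stretch GGGCGGG holds both orders, so the reversed letters are not an independent control for the GC box. All sites with a peak in each mouse, promoters among them, had the GC box at 26.8%. Patterns typical of promoters were rare in these introns: NRF1 (GCGCNTGCG) was in 0.588% against 4.71% of all sites, ETS (CCGGAAGT) in 0.221% against 2.32%, YY1 (AANATGGCG) in 0.441% against 1.71% and EGR (GCGNGGGCG) in 1.08% against 3.85%. Between first and later introns the intervals overlap for EGR (0.778 to 2.10 and 0.634 to 1.42) and for NRF1 (0.465 to 1.56 and 0.284 to 0.865). The 24 windows with NRF1 had median heights of 2.69 and 1.36, and the 44 with EGR of 2.34 and 1.37, above the medians of all members in each mouse. The letters GGGCG are common to the CTCF, EGR and GC box patterns, so 1 stretch can be counted for EGR and for the GC box. The remaining patterns, SOX (ACAATGG), ROR (TAGGTCA), homeobox (TAATTA), NFI, the REST part TCAGCACC, the cAMP response element TGACGTCA and the E-box CACGTG, were in 1.49%, 1.08%, 2.16%, 0.0735%, 1.37%, 0.613% and 5.44% of the windows. Of the windows 1 kb away, in the same order, 2.81%, 1.70%, 3.77%, 0.0245%, 1.02%, 0.123% and 3.21% held them. Over all sites with a peak in each mouse the shares were 1.66%, 0.902%, 2.12%, 0.0592%, 1.33%, 1.44% and 6.20%. SOX, ROR and the homeobox pattern were thus below their flanks. The letters of CACGTG in reversed order were in 5.71% of the windows. A match is a description, not a binding site or a cause.

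**Figure D4:**
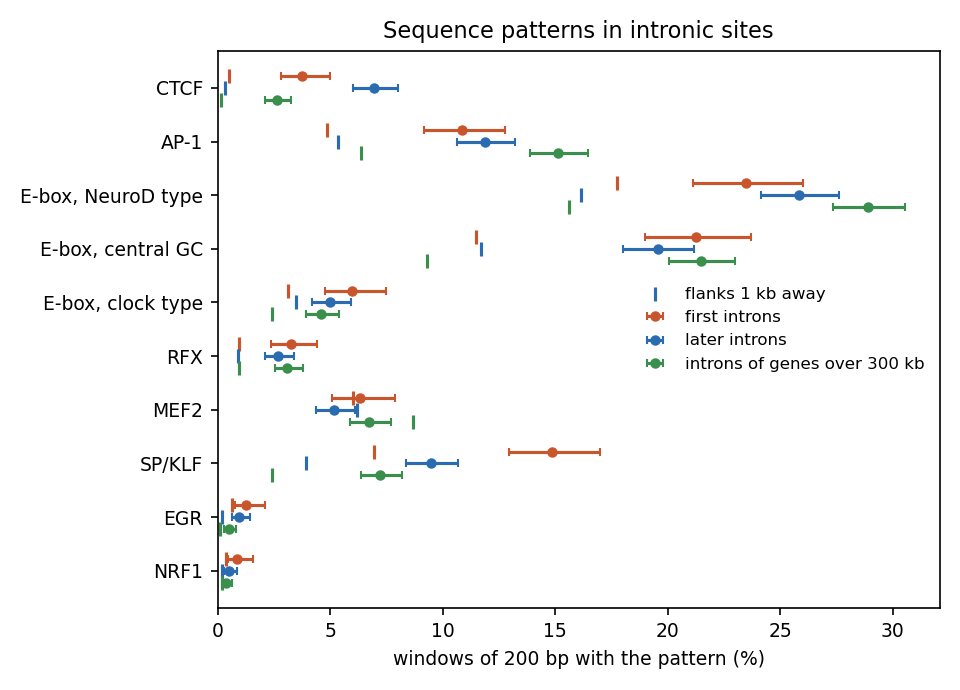
Share of 200-bp windows (%) that hold each sequence pattern in first introns (orange) and later introns (blue) of genes under 100 kb and in introns of genes over 300 kb (green); bars are Wilson 95% intervals and upright ticks are windows 1 kb away. CTCF is highest in later introns at 6.95%, and the GC box (SP/KLF) in first introns at 14.9%.

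The 100 highest sites of each kind differed from the rest in composition. In first introns their median GC content was 58.5% against 53.5%, their median distance to a start site 2731.5 bp against 4372 bp, and the GC box was in 37.0% against 12.8%. The CTCF pattern was in 10% against 3.17%, and CAGATG in 12% against 24.6%. In later introns the GC box was in 27.0% against 8.71%, while the CTCF pattern, at 8% against 6.90%, and CAGATG, at 28% against 25.7%, were near the rest. Tall sites of both kinds were thus GC-rich. Whether first and later introns differ in these contrasts was not tested.

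Sites were mostly unique, unmasked sequence. The median window held 3 CpG dinucleotides (4 in first, 3 in later introns), where promoter sites held 15. Repeats covered a median of 2.00% of the window, and 2.08% of sites were over 50% repeat. Of the eligible intron bases 30.8% are repeat. Other accessible sites held less repeat than these. Over all sites with a peak in each mouse the median was 0%, and 1.14% were over 50% repeat. In intergenic sites these values were 0% and 1.69%. The share over 50% repeat was lower still in introns of genes over 300 kb. GC content of the eligible introns is 43.5%, so the sites, at 52.5%, and their flanks, at 48.2%, were both above it. Exact copies of the sequence elsewhere on chromosomes 1 to 19 and X (median of 5 words of 32 bp over 1 copy) occurred at 15 sites (0.368%), against 0.763% of all sites.

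The site with copies that matters most is the highest. Il31ra, a cytokine receptor subunit, had 31.4 in replicate 1 and 16.2 in replicate 2 in its first intron, 2421 bp from a start site. All 5 words of its window were found together only there, and 1 or 2 of them at 9 other places in the reference assembly, so cuts from those places can be counted at Il31ra. The likeness to large-subunit ribosomal DNA was read from the letters and was not tested against a ribosomal DNA sequence. Cuts at Il31ra and at such copies cannot be told apart here. The next highest first-intron site, in Nr1d1, which codes for the clock repressor REV-ERB alpha, had 10.3 and 10.4, and Mxi1, a MYC antagonist, 10.1 and 9.52. Mnt, another repressor that pairs with MAX, had 8.84 and 5.52, and Cdkn1a, the inhibitor of cyclin-dependent kinases, 7.61 and 4.72. Apart from Creb3l1 and Zfp13, at 16041 and 6519 bp, the 8 highest first-intron sites lay 1050 to 2421 bp from a start site.

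In later introns the 8 highest sites, 1028 to 17716 bp from a start site, had means over the mice of 6.89 to 7.58. That is below the 3 highest sites of first introns and above Nuak1, Creb3l1, Zfp13 and Cdkn1a, at 6.17 to 6.82. Sptbn4, the spectrin of axon initial segments, had 6.91 and 8.26, and Itpkb, an inositol phosphate kinase, 8.49 and 6.39 at 11207 bp from a start site. Clec11a, a secreted lectin growth factor, had 9.18 and 5.54, Morn1 7.66 and 7.00, and Crlf2, a cytokine receptor subunit, 6.75 and 7.46. Atoh8, a basic helix-loop-helix factor, had 8.36 and 5.41 at 17716 bp. Replicate 2 was the higher at Sptbn4, Crlf2, Diaph1 (5.52 and 8.45) and Gm20431 (5.50 and 8.45), against the course over all these sites. Their GC contents were 64%, 59%, 49.5% and 55%.

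The 4081 sites lay in 2848 of 15919 protein-coding genes under 100 kb with eligible intron. Of these genes 2007 held 1 site, 552 held 2, 176 held 3, 74 held 4, 24 held 5, 10 held 6 and 5 held 7. Neighbouring sites in 1 gene were a median of 8607.5 bp apart, and 154 of 1302 such pairs were under 1 kb apart. The maximum, 7, was reached by Ccdc33, Kcnip3, Ncs1, Ralgds and Rasgef1a. Kcnip3 and Ncs1 code for neuronal calcium sensors, and Ralgds and Rasgef1a for exchange factors of small GTPases. In Ralgds all 7 sites were in first introns, with heights from 1.22 to 3.83 in replicate 1 and from 1.31 to 2.72 in replicate 2. In Rasgef1a all 7 were as well, from 1.40 to 3.14 and from 0.860 to 2.45. Ncs1 had 6 in the first intron and 1 in intron 7, and Kcnip3 2 in the first intron and 5 in later ones. In Ccdc33 4 of the 7 also lie in an intron of Stra6, the retinol transporter gene on the other strand, and cannot be assigned to 1 of them. Adgrb1, an adhesion receptor of synapses, Galm and Grb2 held 6 each. None of these 8 genes had a site among the 8 highest of first or later introns.

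Intronic sites were denser in genes with a promoter site. Where a site with a peak in each mouse lay within 1 kb of a start site of the gene, there were 15.3 sites per Mb of eligible intron (14.7 to 15.8) and 2030 of 9251 genes held one. Without such a promoter site there were 12.1 per Mb (11.4 to 12.8), in 818 of 6668 genes. Among genes with a promoter site the density did not follow its height upward. With these genes in 4 groups of like size, from the lowest to the highest promoter, it was 17.2, 16.5, 13.5 and 13.4 per Mb.

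Gene lists of cortical cell types were compared with all protein-coding genes under 100 kb, 17.9% of which (2848 of 15919) held a site. Over the 8 cortical lists 22 of 93 genes with eligible intron held a site (23.7%, 16.2 to 33.2), at 20.03 sites per Mb (14.0 to 27.9) against 14.2. Over genes of liver, muscle and blood cells 1 of 29 did (3.45%, 0.611 to 17.2), at 6.39 per Mb (0.773 to 23.1). The intervals of the cortical lists include both values of all genes. For liver, muscle and blood the interval of the density includes that of all genes, while the interval of the share ends below 17.9%. These 29 genes hold 0.313 Mb of eligible intron and all 15919 genes 291 Mb. With the authors' longer peak list the shares were 45.2% (42 of 93) for cortical lists, 10.3% (3 of 29) for the others and 27.5% (4374 of 15919) for all genes. The single list with a site outside cortical types was liver, through Hnf4a, a nuclear receptor of liver and gut, with 1.67 and 1.42 at one first-intron site and 2.50 and 2.55 at another.

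**Figure D5:**
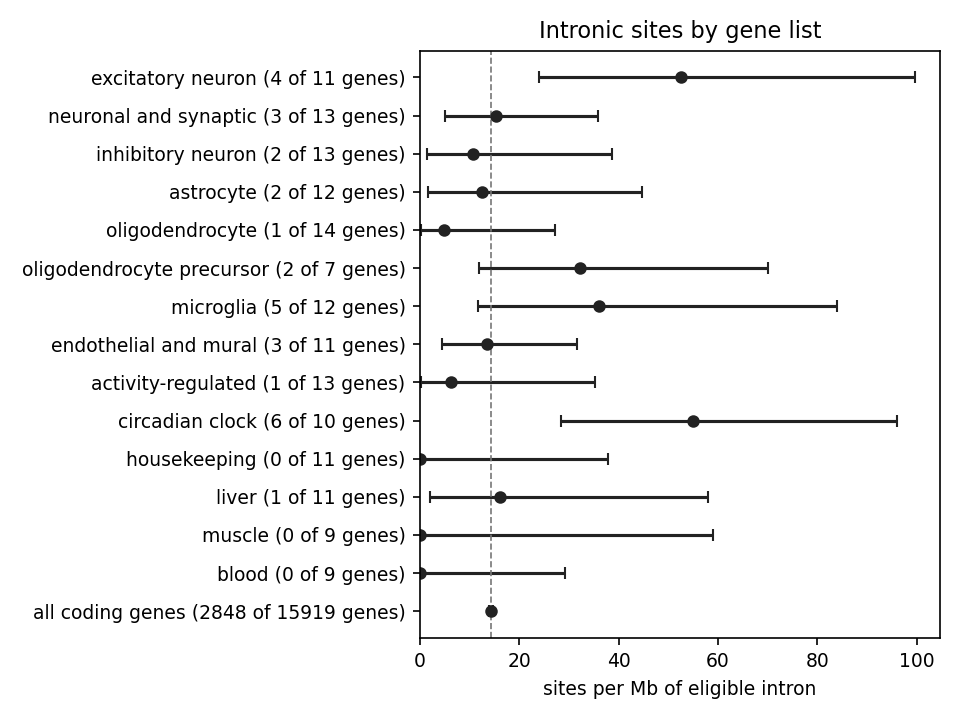
Intronic sites per Mb of eligible intron for each gene list, with exact Poisson 95% intervals and, in brackets, how many genes with eligible intron held a site; the dashed line is the density over all protein-coding genes under 100 kb, 14.2. Circadian clock and excitatory neuron genes lie to its right with their intervals, which take sites as independent, at 55 and 52.5 per Mb.

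Excitatory neuron genes held 9 sites in 4 of 11 genes, 52.5 per Mb (24.0 to 99.7), of which 7 lay in Camk2a and Bcl11b, while the interval takes sites as independent. The share of genes, 36.4% (15.2 to 64.6), has an interval that includes the 17.9% of all genes. Camk2a, the calcium-dependent kinase of excitatory synapses, had 4, with heights of 3.21, 3.83, 2.59 and 2.59 in replicate 1 and 1.81, 1.29, 1.35 and 1.68 in replicate 2. Bcl11b, the transcription factor of subcerebral projection neurons, had 3, up to 2.84 and 1.98, Itpka 1 at 3.53 and 1.53, and Slc17a7, the vesicular glutamate transporter, 1 at 2.08 and 1.26. All 9 were above the median of these sites in both mice. General neuronal and synaptic genes held 5 in 3 of 13 genes (23.1%, 8.18 to 50.3), with an interval that includes the 17.9% of all genes. Dlg4, which codes for the scaffold PSD-95, had a site of 5.84 and 5.32 beside one of 1.82 and 1.93, Nefm, a neurofilament, one of 3.65 and 1.45, and Stx1a 2 sites. Inhibitory neuron genes held sites in 2 of 13 genes (15.4%, 4.33 to 42.2), with an interval that includes the 17.9% of all genes. Gad1, the enzyme of GABA synthesis, had 1.34 and 2.26, higher in replicate 2. Kcnc1, a potassium channel of fast-spiking cells, had 1.09 and 0.853.

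Glial and vascular genes held sites at various heights. Opalin, of mature oligodendrocytes, had 2.89 and 2.61, the only site in 14 oligodendrocyte genes. That share, 7.14% (1.27 to 31.5), has an interval that includes the 17.9% of all genes. Cspg4, the marker of oligodendrocyte precursors, had 4 sites, up to 3.51 and 1.82, and Bcas1 2. The astrocyte sites were low, Slc1a3 at 1.018 and 0.970 and Aqp4 at 0.793 and 1.09. Microglial genes held sites in 5 of 12 genes (41.7%, 19.3 to 68.0), against 17.9% of all genes. The density was 36.0 per Mb (11.7 to 84), an interval that includes the 14.2 of all genes. Among them were Spi1, the myeloid transcription factor, at 3.50 and 1.85, Sall1 at 2.19 and 1.75, Csf1r at 1.099 and 0.764 and Itgam at 0.512 and 0.599. The Itgam site also lies in Gm49368. Of pericyte and endothelial genes Pdgfrb had 2.99 and 3.15, Cdh5 1.48 and 2.04, and Pecam1 3 sites between 0.725 and 1.71 in replicate 1. Sites lay in 2 of 7 oligodendrocyte precursor genes (28.6%, 8.22 to 64.1) and 2 of 12 astrocyte genes (16.7%, 4.70 to 44.8). Of endothelial and mural genes 3 of 11 held one (27.3%, 9.75 to 56.6). These intervals include the 17.9% of all genes. Each glial and vascular list had at least 1 gene with a site in each mouse, and the heights overlapped those of the neuronal lists.

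Circadian clock genes held 12 sites in 6 of 10 genes (60%, 31.3 to 83.2), against 17.9% of all genes. The density was 55 per Mb (28.4 to 96.1), against 14.2. Its interval takes sites as independent, while Cry2 and Per2 held 3 each and Per1 and Cry1 2 each. Beside Nr1d1, Per1 had a first-intron site of 8.11 and 3.55 and another of 2.57 and 1.73. Cry2 had 3, from 2.02 to 2.77 in replicate 1 and from 1.86 to 2.27 in replicate 2, and Per2 3, at 1.47, 0.868 and 2.14 in replicate 1 and 1.24, 0.887 and 1.51 in replicate 2. The 2 sites of Cry1 were low, at 0.862 and 0.832 and at 0.768 and 0.942, as was that of Clock at 1.16 and 0.647. The clock sites thus spanned the range from below the median to among the highest. Activity-regulated genes held 1 site in 13 genes, in the first intron of Bdnf, a growth factor induced by neuronal firing, at 3.50 and 2.59. That share, 7.69% (1.37 to 33.3), has an interval that includes the 17.9% of all genes. Housekeeping genes held none in 11 genes with 0.0977 Mb of eligible intron, with an interval of 0 to 37.8 per Mb that includes the 14.2 of all genes.

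Many intronic sites were listed in 1 mouse alone. Of 8797 sites of this kind with a peak in either mouse 4081 (46.4%) had one in each, 3238 in replicate 1 alone and 1478 in replicate 2 alone. The share in each mouse was 42.6% in first and 48.7% in later introns, 45.3% in introns of genes over 300 kb, 61.0% at promoters and 52.5% over all sites. Those in 1 mouse alone were lower, with median heights of 0.787 in replicate 1 and 0.715 in replicate 2.

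The limits of the rule touch few sites, but not first and later introns alike. Of the 4081 sites 274 held exon bases away from their midpoint, 246 of them in later and 18 in first introns. With these left out, over the same eligible bases, the ratio of first to later density was 1.28 in place of 1.17. In introns of 2 or more coding genes lay 66 sites. The 86 mixed sites named above lay in no intron of a coding transcript but in a coding gene's other transcripts. Just under the length limit were sites in Prep (99996 bp), with 1.19 and 0.612, and Vmp1 (99972 bp), with 0.899 and 0.660. Just over it were 2 sites in Inpp5d (100196 bp), with 1.17 and 0.949 and with 2.17 and 1.27. Just beyond 1 kb from a start site were Tppp (1002 bp), with 2.73 and 1.86, and Tnfrsf21 (1003 bp), with 1.66 and 0.757. Just within it lay Rgma (997 bp), with 1.26 and 2.22, and Tk1 (996 bp), with 2.30 and 1.25.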

How the data were processed

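DNase-seq libraries of left cerebral cortex came from 2 mice. Peak height is a signal value of the deposited peak lists, which the authors made for each library without pooling, per the deposited file list. The sources used here give no peak caller, aligner or setting. The shorter of the 2 deposited lists was used (72021 and 59150 peaks). The deposited list of false discovery rates gives a q-value per run of bases, listed at or under 0.05, and was used for the bases listed within 1 kb of midpoints. The deposited footprints carry a score, 0.01 throughout, which was not used.

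Peaks were merged into sites, classified by GENCODE M21, and read against the GRCm38.p6 sequence of NCBI RefSeq with Python 3.11.15, NumPy 2.4.6, pandas 2.3.3, SciPy 1.17.1 and matplotlib 3.10.9. A first intron is the first of every coding transcript with an intron at the midpoint. Coordinates are 1-based. Shares have Wilson and densities exact Poisson 95% intervals. Merging of peaks, classification of positions, the search for patterns and the count of word copies were tested on simulated data. The other steps were not tested in this way. The rule for named genes took the 8 highest sites of first and of later introns, the 8 genes with the most sites, the 5 largest and 5 smallest ratios, the 3 sites with the most footprints, the 2 genes with the highest site of each of 14 lists, and sites nearest the length limit. Other list genes with a site, and sites nearest 1 kb, were named after their values were seen. The members and lists were chosen with earlier results of these data known.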

Additional observations from a re-analysis of the deposited data

How the results depend on the processing

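No paired analysis was possible because there is 1 group of 2 mice, with no second group to pair it with. Kinds of site were compared within each mouse, as a difference or ratio with its SD over 2 mice and no test. The number of sites in introns of genes under 100 kb was 7680 with the longer peak list, 2086 with the higher 50% of peaks, 2094 in genes under 50 kb, and 5636 to 7324 from the peaks of 1 mouse alone. Their share of all sites, 9.29%, was 10.6%, 8.60% and 4.77% under the first 3 of these, 7.44% over 2 kb from starts and ends, 8.67% with no exon base in the site, and 9.58% to 10.4% with 1 mouse. The ratio of first to later density, 1.17, ranged from 1.14 to 1.40 with 1 mouse alone and was 1.07 with reciprocal overlap. It was 1.28 with no exon base in the site, 1.31 with the higher 50% of peaks, and above 1 under every alternative run. The difference in height between first and later introns stayed above 0 under all 14 alternatives run, from 0.0187 to 0.132, and was smallest with the peaks of 1 mouse alone, 0.0378 without replicate 1 and 0.0187 without replicate 2. The height ratio to introns of genes over 300 kb, 1.23, was 1.08 with the higher 50% of peaks, 1.19 with reciprocal overlap of 50%, 1.20 over 2 kb, 1.27 under 50 kb and 1.17 to 1.23 with 1 mouse. The share 2-fold higher in replicate 1, 9.04%, was 2.55% with heights divided by the library median. The share with a footprint, 95.2%, was 83.3% with the longer list, 98.6% with the higher 50% of peaks, 96.6% with reciprocal overlap, 95.6% over 2 kb, 96.1% under 50 kb, 94.8% with footprints wholly inside, 93.7% in 200 bp, and 85.6% to 93.9% with 1 mouse. The CTCF share, 5.76%, was 4.34% with the longer list, 7.00% with the higher 50% of peaks, 6.76% with reciprocal overlap, 7.21% under 50 kb and 4.00% to 4.99% with 1 mouse. Genes of cortical lists with a site, 23.7% against 17.9% of all genes, were 45.2% against 27.5% with the longer list, 18.3% against 9.97% with the higher 50%, 19.4% against 14.7% over 2 kb, 17.2% against 10.6% under 50 kb, and 34.4% to 36.6% against 24.5% and 22.5% with 1 mouse. The shares under 50 kb are still over the 93 and 15919 genes under 100 kb. Those genes of 50 kb or more cannot hold a site there, which lowers both shares. Merging touching peaks and leaving out sequences with a copy elsewhere were chosen after seeing the data and moved none of these. Of the cause of these shifts, fewer or more peaks and genes follow from the alternatives themselves, and the cause of the rest was not tested. Depth limits single sites: 2 libraries give no error for a ratio, and a peak list shows nothing under its threshold. Of 132 named sites 50 still met the rule under 50 kb, 92 with the higher 50% of peaks, 101 with reciprocal overlap, 103 over 2 kb, and 125 to 132 under the other 5 alternatives for which this was counted.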
